A study of Mus musculus with 9 samples.

Results

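The comparison described here set P19 NTES7, an embryonic stem cell line obtained by cloning the nucleus of a P19 cell, against R1, a line of mouse embryonic stem (ES) cells. It compared 6 of the 9 arrays of the series, the 3 labelled as pluripotent stem cells derived from P19 cells with the 3 labelled as R1 ES cells. All 28853 probe sets were used, with the spread between arrays estimated over all 9 arrays. Each of 19941 genes with a symbol of its own was represented by its brightest probe set, the one with the highest mean log2 intensity over the 9 arrays. The study asked how far nuclear transfer changed P19 cells, an embryonal carcinoma line from a mouse teratocarcinoma, and the question here was what still separated the cloned line from ES cells.

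The P19 NTES7 line came from 1 cloned blastocyst, made with a P19 nucleus in an enucleated B6D2F1 (C57BL/6 x DBA/2) oocyte, and the series text names the arrayed cells N7P8. R1 is 1 line from another strain background and a normal embryo. Cell line, strain and the effect of cloning therefore cannot be told apart in these arrays. All cells received the same medium with 15% FBS and 1000 units/ml LIF, the cytokine that holds mouse ES cells undifferentiated, at 37 °C and 5% CO2. Per the study's methods, the cloned line and the ES cells grew on mitomycin C-treated mouse embryonic fibroblasts, which were removed before collection, whereas P19 cells grew without such feeders. The 3 samples of each line were labelled as biological repeats. P19 values are given below only as levels beside the comparison, as every value of P19 against R1 would share the R1 arrays. The P19 arrays do enter the standard errors, p-values and calls, through the spread that the 3 lines share.

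Mouse ES cells in LIF are held in a naive state by a network of transcription factors, among them Esrrb, Tfcp2l1, Klf4, Nr0b1 and Zfp42, on top of the core factors Oct4 (Pou5f1), Sox2 and Nanog. The core factors are shared with embryonal carcinoma cells and with the later, primed epiblast, while the naive factors and their products, such as Dppa5a and Fbxo15, mark the naive state. The p53 protein (Trp53), which slows the cell cycle or starts cell death after DNA damage, is abundant in ES cells and is often lost in tumor lines.

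The intensities are robust multi-array average (RMA) values on a linear scale. Array medians ran from 16.5 to 17.5, and 16.9 was the median of all values, so that levels near or under it lie at the bottom of the scale, where a fold is not exact. R1 replicate 3 stood farthest from its own line (mean distance 48.9 against 35.6 and 34.5 on the log2 scale over all probe sets), and no pair of the 36 pairs of arrays held identical values. The summed level of 30 fibroblast markers was 3448 to 4144 in P19 NTES7, 5102 to 5871 in R1 and 1364 to 1390 in P19, and its part in the differences below was not tested. Fewer cells of a type and less RNA per cell cannot be told apart in such bulk samples.

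Levels in P19 were set beside those of the cloned line at Bco2, A2m and Trp53. These 3 genes were picked from the largest differences of this same comparison, so they do not test the label. Bco2, a carotenoid-cleaving oxygenase, read 252, 287 and 231 in the 3 P19 NTES7 arrays and 316 on average in P19, against 8.38, 7.59 and 7.49 in R1. A2m, a secreted protease inhibitor, read 988, 915 and 880.0 in P19 NTES7, 73.2, 71.1 and 104 in R1 and 2033 on average in P19. Trp53 was at the bottom of the scale in both P19 NTES7 and P19. All 3 genes lay on the same side of R1 in the cloned line as in its source, although for A2m the P19 mean lay above every P19 NTES7 array. Other genes of large difference did not follow P19. Nr0b1 averaged 33.7 in P19 NTES7, 607 in P19 and 561 in R1, and Meioc averaged 192, 16.9 and 25.4 in the same order. Y-linked genes did not follow P19 either, as 2 of 8 measured (25%) were called lower in P19 NTES7, against 2.85% of all genes. Eif2s3y, a translation initiation factor subunit encoded on the Y chromosome, averaged 156 in P19 and 198 in R1 but read 9.07, 7.80 and 8.92 in P19 NTES7. Uty, a Y-linked histone demethylase relative, averaged 69.7 in P19 and 131 in R1 and read 8.08, 7.27 and 9.09 in P19 NTES7. A further Y-linked gene, Kdm5d, averaged 8.69 in P19 NTES7, 9.01 in R1 and 75.99 in P19. At these 3 probe sets all P19 NTES7 arrays lay under the array median and the P19 means far above it, and the reason was not tested. Xist, the RNA that silences an X chromosome in female cells, read 11.4, 14.4 and 10.7 in P19 NTES7 and 21.8, 23.4 and 29.1 in R1. It lay under the array median in P19 NTES7 and not far above it in R1. Xist was called lower, at the fold threshold, but not without P19 NTES7 replicate 1, without replicate 3 or without R1 replicate 3.

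A probe set or gene was called when its adjusted p in limma was under 0.01 and its fold over 2. The study's methods set the same limits on the fold and on the p of a one-way analysis of variance, for which they name no adjustment. Between the lines, 1305 probe sets were called, 4.52% of those tested. Among genes, 568 were lower in P19 NTES7 (2.85% of 19941) and 334 were higher (1.67%), and the median log2 difference over all genes was 0.01. The 3 arrays of P19 NTES7 did not overlap the 3 of R1 in any of the 902 called genes. Such a gap was common over all 19941 genes, in 3701 with lower and 4076 with higher levels in P19 NTES7, so it adds little to a call. By over 4-fold, 87 genes were lower (15.3% of those called lower) and 42 higher (12.6% of those called higher), and by over 8-fold 24 were lower and 8 higher. Of the genes called lower, 156 lay under the array median in P19 NTES7, and of those called higher, 104 lay under it in R1. Without R1 replicate 3, 977 genes were called.

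**Figure D1:**
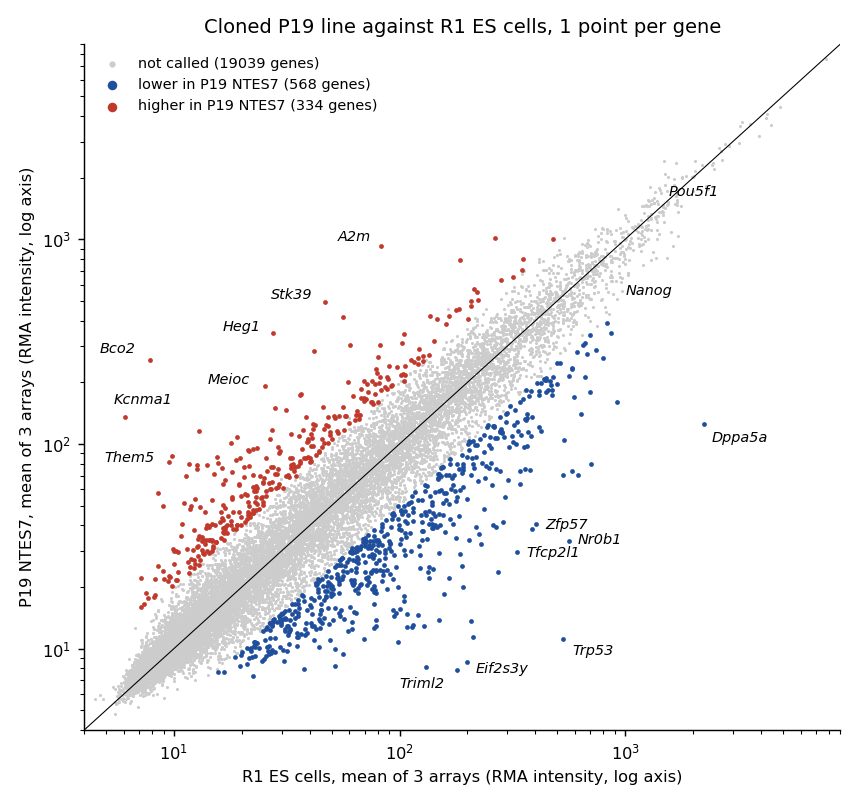
Mean RMA intensity of each of 19941 genes in R1 ES cells (x axis) and in P19 NTES7 (y axis), 3 arrays a line, both axes logarithmic. Points are genes, the line marks equal levels, and the 568 genes called lower (blue) and the 334 called higher (red) lie on either side of it. Trp53 lies farthest under the line and Bco2 farthest above it, while Pou5f1 lies on it.

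Of the 29 gene lists examined, some of which share members, the naive transcription factors had the highest share of members called lower. The lists were drawn up with earlier results of these data known. The naive factor, naive product and p53 lists hold genes that the study discusses and genes of the largest falls. Their ranks are therefore no independent evidence. Among all genes 2.85% were lower and 1.67% higher, and among the 10888 genes above the array median in either line, 5.2% and 3.04%. Of 14 measured factors, 12 were lower in P19 NTES7 and 0 higher (85.7% lower), with a median log2 difference of -1.67. Nr0b1 (Dax1), an orphan nuclear receptor, read 33.3, 33.6 and 34.1 in P19 NTES7 and 565, 558 and 561 in R1, a 16.7-fold difference (log2 difference -4.06 ± 0.14 (SE), adjusted p = 3.49e-10). Nr0b1 was also high in P19, at 607 on average, so the cloned line lay under both. Tfcp2l1, a CP2-family factor that acts downstream of LIF, read 32.5, 30.1 and 26.9 in P19 NTES7 and 330.0, 330.0 and 338 in R1 (log2 difference -3.48 ± 0.10 (SE), adjusted p = 1.09e-10), and averaged 12.6 in P19. Nr5a2 (Lrh1), a nuclear receptor that can drive Pou5f1, read 15.1, 15.6 and 12.98 against 113, 120.1 and 130.2 (log2 difference -3.06 ± 0.10 (SE), adjusted p = 2.24e-10), so its P19 NTES7 arrays lay under the array median. Esrrb, another orphan nuclear receptor, read 34.8, 29.8 and 32.7 against 237, 235 and 218, and averaged 9.26 in P19. In each of these 4 genes the 3 arrays of a line lay close together and far from those of the other line.

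The Krüppel-like factors differed less. Klf2 read 59.7, 42.6 and 57.4 in P19 NTES7 and 158, 152 and 173 in R1 (3.06-fold lower), Klf4 averaged 41.5 against 126 (3.04-fold lower) and Klf5 averaged 136 against 278 (2.05-fold lower, not called without P19 NTES7 replicate 2). All 3 were lowest in P19, with means of 21.1, 13.04 and 44.9. Zfp42 (Rex1), a zinc finger protein used as a reporter of the naive state, read 40.6, 45.2 and 39.1 in P19 NTES7 and 293, 324 and 249 in R1 (log2 difference -2.79 ± 0.16 (SE), adjusted p = 3.12e-08). The homeobox factor Gbx2, the T-box factor Tbx3, Sox15 and the cell cycle factor Mybl2 were lower by 2.49 to 4.26-fold. Nanog was not called at a fold of 1.46, although its arrays did not overlap: it read 619, 640.0 and 622 in P19 NTES7 and 956, 939 and 846 in R1 (adjusted p = 0.00106), and averaged 178 in P19. Prdm14, a repressor of primed genes, read 25.2, 26.4 and 19.01 against 31.3, 30.7 and 29.4 (adjusted p = 0.0305).

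Of 17 products of the naive state listed, 14 were measured, and 11 of these were lower (78.6%) and 1 higher (7.14%), with a median log2 difference of -2.11. Jam2, a junctional adhesion molecule, read 25.8, 26.1 and 24.4 in P19 NTES7 and 189.8, 192 and 187 in R1 (log2 difference -2.90 ± 0.09 (SE), adjusted p = 1.94e-10), with no overlap and a P19 mean of 25.8. Lncenc1, a long noncoding RNA abundant in naive ES cells, read 171, 157 and 156 against 914, 908 and 926 and averaged 21.6 in P19. Fgf4, the growth factor through which ES cells prepare for lineage commitment, read 24.99, 22.2 and 26.6 against 138, 148 and 137 (log2 difference -2.52 ± 0.17 (SE), adjusted p = 1.33e-07). For Jam2 and Fgf4 the P19 NTES7 level was at or under that of P19 (mean 38.1 for Fgf4), whereas Lncenc1 lay between P19 and R1. Fbxo15, an F-box protein used as a reprogramming reporter, averaged 66.4 in P19 NTES7, 304 in R1 and 13.4 in P19. Zfp57, a zinc finger protein that protects methylation at imprinted loci, read 43.04, 41.05 and 38.00 against 401, 399.8 and 406 and averaged 52.5 in P19 (log2 difference -3.31 ± 0.11 (SE), adjusted p = 1.77e-10). The 1 member higher in P19 NTES7 was Tex19.1, which takes part in silencing retrotransposons, at 44.6, 55.96 and 84.9 against 26.1, 31.2 and 29.9 (2.06-fold). It was not called without P19 NTES7 replicate 3 or without R1 replicate 1. Dppa3 and Pecam1 were not called, but Pecam1 was called lower without R1 replicate 1.

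Core pluripotency factors stood apart from the naive list in count, as 1 of 12 measured members was lower (8.33%, against 2.85% of all genes) and 0 higher (median log2 difference -0.59). Pou5f1 read 1663, 1265 and 1485 in P19 NTES7 and 1372, 1391 and 1647 in R1, so that the arrays overlapped (log2 difference 0.00 ± 0.12 (SE)). Sox2, the partner of Oct4, read 546, 538 and 542 against 917, 901 and 835 with no overlap, a 1.63-fold difference under the fold threshold (adjusted p = 1.31e-04). The 1 called member was Utf1, a chromatin-bound factor, which read 94.8, 54.3 and 71.3 in P19 NTES7 and 649.8, 606 and 496 in R1 (log2 difference -3.02 ± 0.18 (SE), adjusted p = 4.88e-08). Utf1 averaged 471 in P19, so the cloned line lay under both other lines, as it did for Nr0b1. Mycn read 90.99, 94.2 and 95.8 against 192, 189 and 179.6 and lay just within the fold threshold, so it was not called. It was called without P19 NTES7 replicate 2, without replicate 3 or without R1 replicate 3, which makes 2 lower members, and 2 members were also lower with median centring. The RNA-binding protein Lin28a was higher in P19 NTES7 without passing the fold threshold, at 251, 220.1 and 262 against 166, 147 and 153. Myc read 80.7, 100.1 and 80.1 against 170.3, 172 and 130.3 (adjusted p = 0.0196).

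**Figure D2:**
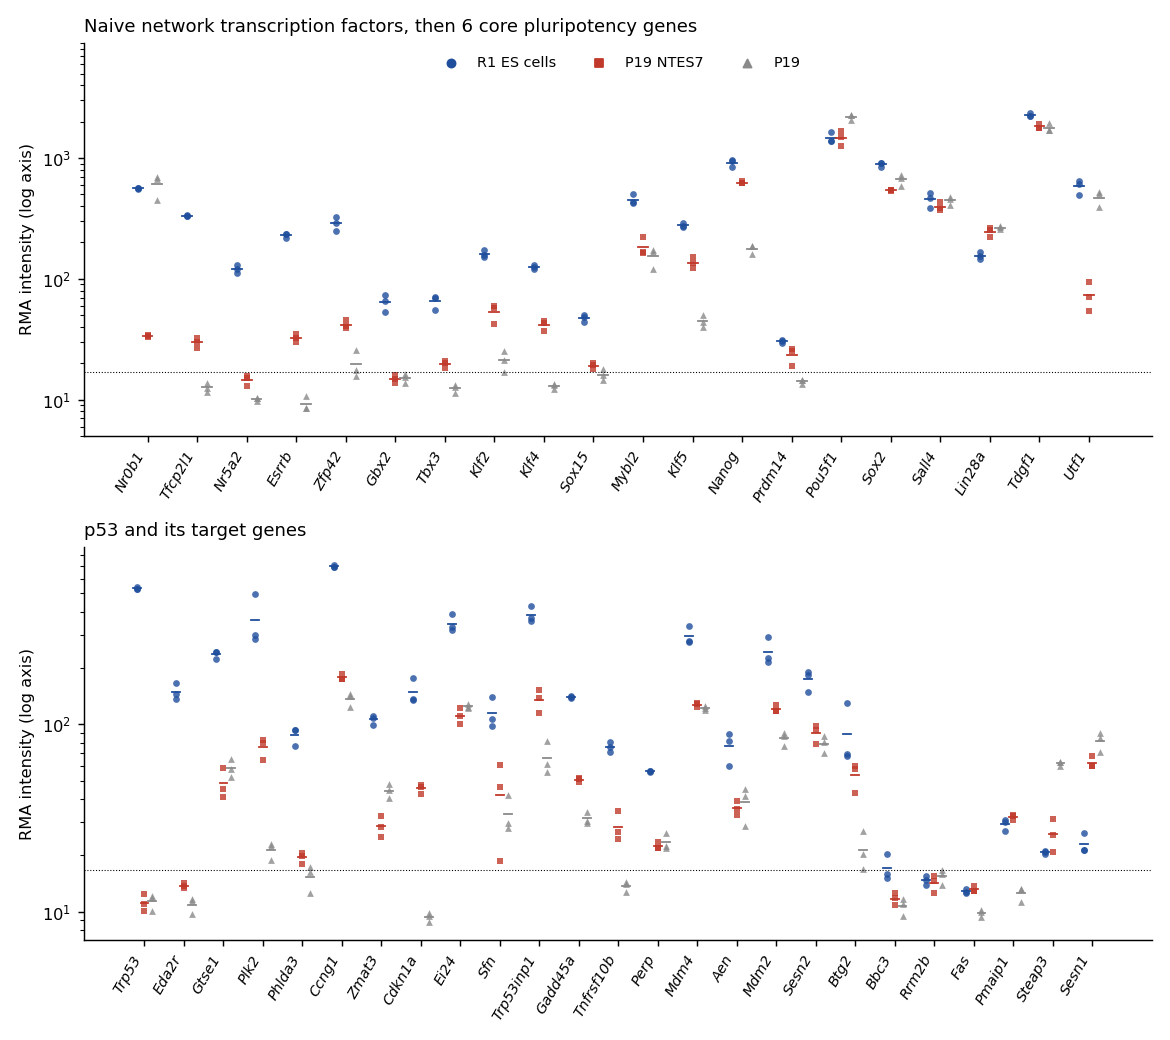
RMA intensity (log axis) of each of the 9 arrays for the 14 naive transcription factors and 6 core pluripotency genes (top) and for the 25 genes of the p53 list (bottom). Blue circles are R1, red squares P19 NTES7 and gray triangles P19. Short lines are means of 3 arrays and the dotted line is the median of the 9 array medians (16.8). The red squares lie under the blue circles from Nr0b1 to Klf5 and overlap them at Pou5f1, and Trp53 sits at the bottom of the scale in both P19 NTES7 and P19.

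The p53 list held the largest fall of all genes and 17 lower members of 25 measured (68%), with 1 higher and a median log2 difference of -1.43. Trp53 itself read 11.1, 10.1 and 12.4 in P19 NTES7 and 527, 529 and 540.1 in R1 (log2 difference -5.58 ± 0.11 (SE), adjusted p = 4.62e-12). All 3 P19 NTES7 arrays lay under the array median, as did the P19 mean of 11.4, so the 47.8-fold difference is that of the intensities and not an exact ratio of transcripts. Which exons the probe set covers was not examined. Eda2r, a death receptor of the TNF receptor family, read 13.7, 14.3 and 13.4 against 146, 136 and 166 (log2 difference -3.43 ± 0.11 (SE), adjusted p = 1.44e-10), and averaged 10.9 in P19.

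Targets that act on the cell cycle were lower to different degrees. Ccng1, an unusual cyclin induced by p53, read 187, 174 and 175 in P19 NTES7 and 691, 690.3 and 710.4 in R1 (log2 difference -1.97 ± 0.09 (SE), adjusted p = 5.36e-09). Cdkn1a (p21), the inhibitor of cyclin-dependent kinases, read 47.7, 42.5 and 46.6 against 136, 135 and 177 (3.25-fold lower). Cdkn1a was lower still in P19, at 9.35, while Ccng1 averaged 137 there. Gadd45a, a stress protein, read 51.6, 50.8 and 49.3 against 141, 139.8 and 138, with the arrays of each line close together. Gtse1, a G2 phase protein that acts on p53, was 4.95-fold lower and Plk2, a polo-like kinase, 4.64-fold lower. R1 replicate 3 was the highest R1 array for Plk2, at 497, over 285 and 300.4.

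The feedback arm of the pathway was lower too, but less. Mdm2, the ligase that degrades p53, read 117, 127 and 118 in P19 NTES7 and 216, 225 and 291 in R1, a fold at the threshold (adjusted p = 3.22e-05) that fell under it without P19 NTES7 replicate 1, without replicate 3 or without R1 replicate 3, and Mdm4 read 123, 130.3 and 128 against 273, 279 and 337. Among genes of cell death and survival, Phlda3, Zmat3, Tnfrsf10b and Perp were lower by 2.49 to 4.49-fold. The death genes Bbc3 (Puma), Pmaip1 (Noxa) and Fas were not called. Sesn1, a sestrin that restrains growth signaling, was the exception of the list, at 67.5, 60.2 and 59.8 in P19 NTES7, 21.4, 21.3 and 26.4 in R1 and 81.6 on average in P19. Of 17 cell cycle inhibitors and cyclins measured, 4 were lower (23.5%, against 2.85% of all genes) and 0 higher. Beside Cdkn1a these were cyclin D1, cyclin D2 (at the fold threshold, not called without P19 NTES7 replicate 2, without replicate 3 or without R1 replicate 3) and the retinoblastoma gene Rb1, which read 31.5, 27.1 and 31.7 against 109, 116 and 113, 3.74-fold lower.

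The 18 genes that the study itself discusses held 10 lower members and 1 higher (Peg3), but they were chosen on these samples, so this count is no independent evidence. The 15 largest falls also included genes outside the naive and p53 lists. Tdrd12, a Tudor protein of the piRNA pathway, read 25.4, 20.1 and 25.7 in P19 NTES7 and 262, 268 and 291 in R1 (log2 difference -3.53 ± 0.13 (SE), adjusted p = 5.76e-10) and averaged 20.2 in P19. Adam23, a membrane protein that binds integrins, averaged 38.4 against 386, and Cdyl2, a chromodomain protein, 20.1 against 191. AU018091, which has no common name in the annotation, read 9.58, 12.4 and 12.3 against 207, 240.1 and 185. All 4 were also far under R1 in P19, where the highest mean among them was 59.1 for Adam23.

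Several of the 15 largest rises were also high in P19. Kcnma1, the large-conductance calcium-activated potassium channel, read 108, 208 and 91.6 in P19 NTES7 and 5.71, 6.83 and 5.66 in R1, with a P19 mean of 169. P19 NTES7 replicate 2 was the highest array for Kcnma1, and the call was lost in the analysis of variance with adjusted p-values. Stk39, a kinase that acts on ion cotransporters, read 539.8, 463 and 474 against 48.1, 42.6 and 50.3 (log2 difference 3.39 ± 0.10 (SE), adjusted p = 1.17e-10). Npy, the neuropeptide, averaged 78.6 against 12.7, and Cep41, a centrosomal and ciliary protein, 285 against 41.9. In P19 these genes averaged 889.6 (Stk39), 121 (Npy) and 313 (Cep41).

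Them5 and Meioc, also among these rises, were near the R1 level in P19. Them5, a mitochondrial thioesterase, read 87.6, 87.4 and 70.4 in P19 NTES7 and 9.35, 8.66 and 10.6 in R1, and averaged 9.86 in P19. Meioc, which maintains meiosis in germ cells, read 183, 200.2 and 193 against 19.02, 21.1 and 35.9 (log2 difference 2.98 ± 0.18 (SE), adjusted p = 5.98e-08), with a P19 mean of 16.9. Cacna1h, a T-type calcium channel, averaged 79.8 in P19 NTES7, 11.6 in R1 and 27.1 in P19.

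**Figure D3:**
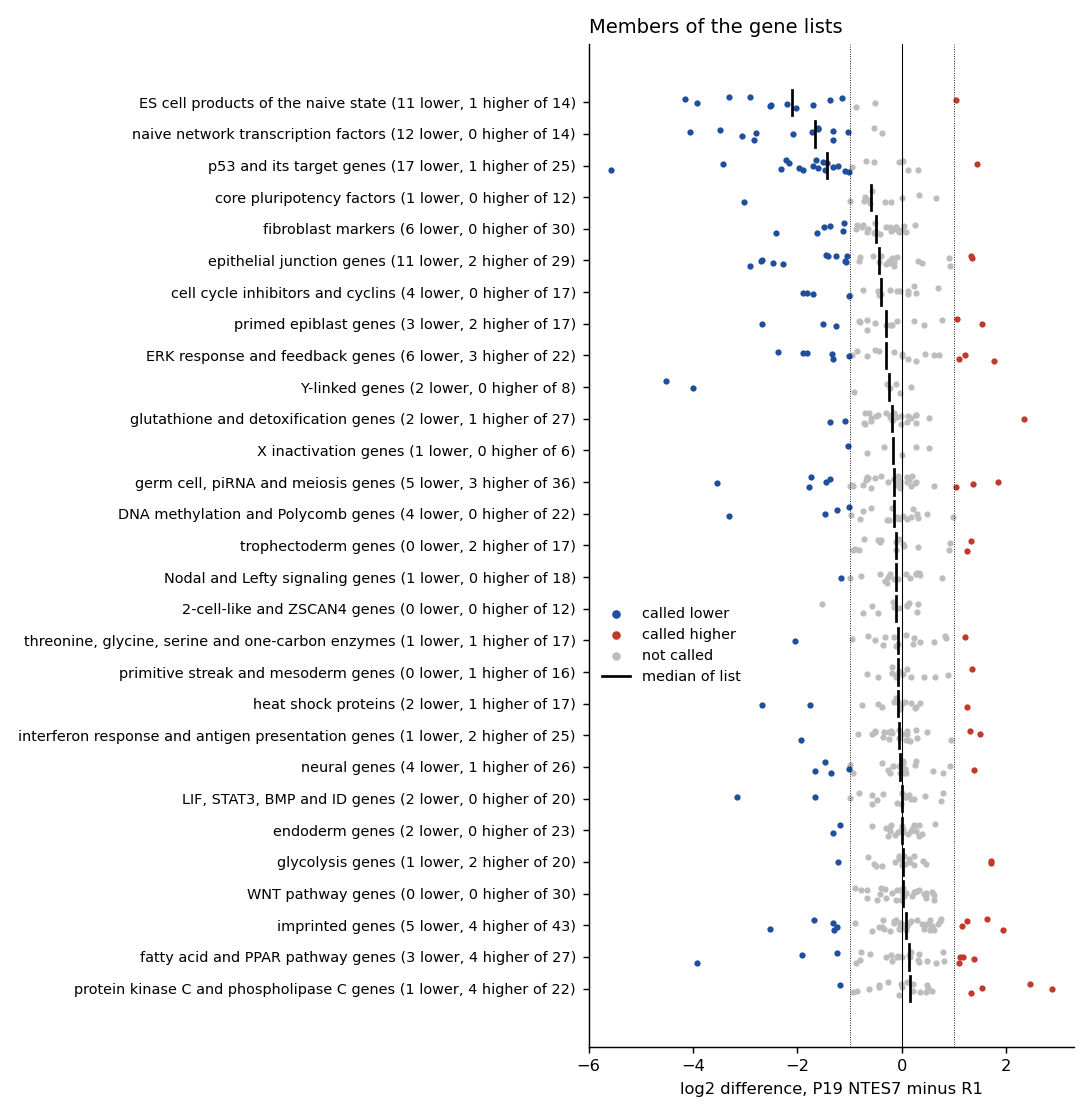
Log2 difference of P19 NTES7 minus R1 (x axis) for each measured member of 29 gene lists, sorted by the median of the list (black bar). Blue points were called lower, red points called higher and gray points not called, dotted lines mark the fold of 2, and the vertical scatter within a row carries no value. The lists of naive products (11 of 14 lower), naive factors (12 of 14) and p53 genes (17 of 25) have the lowest medians, and the WNT list has no called member.

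Among signaling genes, members of the ERK response list went both ways. Of 22 measured, 6 were lower (27.3%) and 3 higher (13.6%), against 2.85% and 1.67% of all genes, with a median log2 difference of -0.30. Spry2, which damps signals from growth factor receptors, read 109, 96.5 and 108 in P19 NTES7 and 559, 561 and 494 in R1 (log2 difference -2.37 ± 0.10 (SE), adjusted p = 1.93e-09), with a P19 mean of 99.7. Spry4, the phosphatase gene Dusp6 and the factors Etv4 and Etv5, which are induced by FGF, were lower as well, by 2.01 to 3.72-fold. Cyclin D1 (Ccnd1) averaged 169 against 591. The immediate early gene Jun, in contrast, read 401, 295 and 339.9 in P19 NTES7 and 80.4, 85.7 and 148 in R1, and averaged 69.4 in P19. Dusp1, which switches off stress kinases, read 1106, 912 and 992 against 401, 399 and 631, and Egr2, 39.4, 44.02 and 32.7 against 15.7, 16.1 and 17.7. R1 replicate 3 was the highest R1 array for all 3, without reaching the P19 NTES7 arrays. Calls near the fold threshold were lost on leaving out an array, that of Etv4 without P19 NTES7 replicate 2, R1 replicate 1 or R1 replicate 2 and that of Dusp1 without R1 replicate 1 or R1 replicate 2.

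In the LIF and BMP list 2 of 20 measured members were lower (10%, against 2.85% of all genes) and 0 higher (median log2 difference 0.00). Bmp4, the ligand that keeps ES cells from neural fate, read 14.7, 11.8 and 11.9 in P19 NTES7 and 117, 119 and 104 in R1, and Bcl3, a nuclear IκB protein induced by LIF, 28.4, 21.02 and 23.4 against 89.4, 94.5 and 52.96. Stat3, the factor activated by LIF, was not called at 1.74-fold higher, with 388, 388 and 372 in P19 NTES7 and 210.1, 224 and 226 in R1. Id1, a BMP target, was not called either, at 21.03, 26.7 and 22.5 against 36.8, 35.2 and 32.4. The LIF receptor chains Lifr and Il6st had log2 differences of 0.17 and 0.08. Nodal signaling held 1 lower gene of 18 measured (5.56%), Inhba (an activin subunit, 14.4, 15.3 and 12.3 against 30.5, 33.99 and 29.3). No WNT gene of 30 measured was called in limma, although 19 had an unadjusted p under 0.05. So did 29 of 43 imprinted genes and 10 of 23 endoderm genes, and the share over all genes was not counted. In the Nodal list Smad7 was also called lower without P19 NTES7 replicate 1 or without R1 replicate 3 (2 lower), Lefty1 was called higher without R1 replicate 3, and with 16 added to each intensity 0 were lower.

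Of 22 genes of protein kinase C and phospholipase C measured, 4 were higher (18.2%) and 1 lower (4.55%), against 1.67% and 2.85% of all genes. Plce1, a phospholipase activated by Ras, read 102, 87.3 and 68.3 in P19 NTES7 and 15.7, 15.4 and 15.5 in R1 (log2 difference 2.45 ± 0.14 (SE), adjusted p = 3.96e-08), and averaged 428 in P19. Prkcb, a classical protein kinase C, read 56.8, 54.1 and 55.3 against 14.9, 17.6 and 26.99 and averaged 226 in P19. The protein kinase D gene Prkd1 was 2.52-fold higher and Prkch 2.28-fold lower, a call lost with its probe sets averaged (log2 difference -0.76). Without R1 replicate 1, Plcb4 was called lower as well (2 lower).

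Epithelial junction genes were lower in 11 of 29 measured members (37.9%) and higher in 2 (6.9%), against 2.85% and 1.67% of all genes (median log2 difference -0.44). Cdh1 (E-cadherin), which joins ES cells into compact colonies, read 189, 155 and 177 in P19 NTES7 and 456, 445 and 517 in R1 (log2 difference -1.45 ± 0.19 (SE), adjusted p = 8.41e-05), with a P19 mean of 85.3. Cdh2 (N-cadherin), listed with the primed epiblast genes, went the other way, with 151, 137 and 128 against 68.2, 66.4 and 65.1, a fold at the threshold that was not called without P19 NTES7 replicate 1. Esrp1, an epithelial splicing factor, read 44.5, 37.99 and 38.1 against 254, 276 and 248 (log2 difference -2.69 ± 0.12 (SE), adjusted p = 2.99e-09), and Grhl2, an epithelial transcription factor, 15.5, 17.97 and 13.5 against 106, 109 and 86.5. Cldn4, a tight junction claudin, averaged 23.8 against 134. P19 means of these 3 genes were 30.9, 25.1 and 19.14, near those of the cloned line. The higher members were Jam3 and Krt19, a simple epithelial keratin that read 79.5, 61.2 and 74.03 in P19 NTES7, 27.8, 32.9 and 25.4 in R1 and 10.5 on average in P19. With 16 added to each intensity before the log, 7 members were lower and 0 higher.

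Genes that write or protect DNA methylation and Polycomb marks were lower in 4 of 22 measured members (18.2%, against 2.85% of all genes) and higher in 0. Besides Zfp57, these were Tet2, which oxidizes methylcytosine (51.96, 62.3 and 58.9 in P19 NTES7, 162, 167 and 151 in R1), Dnmt3l, the cofactor of de novo methylation (117, 113 and 124 against 302, 307 and 233), and the Polycomb subunit Eed at the fold threshold. The other probe set of Eed had the opposite sign, and with both averaged its log2 difference was -0.47 and was not called. Eed was also not called without P19 NTES7 replicate 2, without replicate 3 or without R1 replicate 3, whereas Cbx2, another Polycomb subunit, was called higher without P19 NTES7 replicate 2, R1 replicate 1 or R1 replicate 2. Dnmt3l averaged 24.3 in P19, under both lines. The methyltransferase Dnmt3b was not called, at 299, 262 and 257 against 283, 284 and 309.

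Imprinted genes showed no common direction, with 5 lower (11.6%) and 4 higher (9.3%) of 43 measured and a median log2 difference of 0.09. Among all genes the shares were 2.85% and 1.67%. Mest (Peg1), expressed from the paternal allele, read 1036, 959 and 1045 in P19 NTES7 and 260.0, 262 and 269 in R1 (log2 difference 1.94 ± 0.09 (SE), adjusted p = 3.67e-09), near its P19 mean of 917. Peg3, another paternally expressed gene, read 425, 434 and 410.5 against 125, 128 and 156 (log2 difference 1.64 ± 0.10 (SE), adjusted p = 8.63e-08) and averaged 289 in P19. Grb10, an adaptor that restrains insulin signaling, read 49.4, 52.4 and 51.1 against 148, 153 and 196, and its neighbor Cobl, an actin nucleator, 14.1, 12.7 and 14.4 against 83.3, 79.2 and 73.7. H19, the maternally expressed noncoding RNA, was not called by its brightest probe set (995, 756 and 758 in P19 NTES7, 497, 496 and 508 in R1, 1.66-fold higher) and averaged 28.7 in P19. Plagl1 was not called either, at 56.5, 72.1 and 55.9 against 36.7, 34.5 and 38.3, far under its P19 mean of 323.

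Germ cell genes were lower in 5 (13.9%) and higher in 3 (8.33%) of 36 measured, against 2.85% and 1.67% of all genes. Hormad1 and Stag3, of the meiotic chromosome axis and cohesin, and the receptor gene Kit were lower by 2.59 to 3.35-fold. The piRNA pathway was split, as Tdrd5 read 92.3, 75.98 and 65.7 in P19 NTES7 and 19.7, 20.9 and 24.3 in R1 (log2 difference 1.84 ± 0.13 (SE), adjusted p = 2.04e-07) and Piwil4 (Miwi2) read 25.7, 24.5 and 27.8 against 9.71, 10.4 and 9.97, opposite to Tdrd12. P19 averaged 19.5 for Tdrd5 and 9.74 for Piwil4, so both were higher in the cloned line than the level of either other line. No 2-cell-like gene of 12 measured was called in limma, with 3 at an unadjusted p under 0.05, a share not counted over all genes. Without R1 replicate 3, 2 were called lower, Tdpoz3 and Usp17lc.

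Lineage lists held called members of both directions, against 2.85% lower and 1.67% higher among all genes. Among genes above the array median in either line the shares were 5.2% and 3.04%. Of the primed epiblast genes 3 of 17 measured were lower (17.6%) and 2 higher (11.8%, with Cdh2 lost without P19 NTES7 replicate 1). Sox4 read 249, 180.0 and 182 in P19 NTES7 and 64.1, 66.9 and 77.1 in R1, Zic5, a zinc finger factor, 91.8, 72.2 and 63.7 against 220.4, 215 and 206, and the primed marker Fgf5 was not called at 35.02, 45.1 and 45.8 against 62.8, 71.5 and 85.98. Among primitive streak and mesoderm genes 1 of 16 was called, Fgf8, at 75.4, 67.6 and 70.6 in P19 NTES7, 25.6, 27.1 and 31.5 in R1 and 22.1 on average in P19. Of endoderm genes 2 of 23 were lower, the basement membrane gene Lama1 and the lipid carrier Apoe, and of trophectoderm genes 2 of 17 were higher (11.8%), Krt19 and Ascl2, with Peg10 called lower without R1 replicate 3. Neural genes were lower in 4 of 26 (15.4%) and higher in 1, or 2 with Zic1 without P19 NTES7 replicate 2: Stmn2, a neuronal microtubule regulator, read 101, 102 and 86.3 against 292, 309 and 316, Crabp1, a retinoic acid binding protein, 131, 114 and 149 against 386, 369 and 336, and Nes (nestin) 84.1, 67.6 and 74.00 against 28.5, 25.1 and 32.99.

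Metabolic and stress lists had 1 to 4 members called in a direction. Shares were 2.85% lower and 1.67% higher among all genes, and 5.2% and 3.04% among genes above the array median in either line. All 20 glycolysis genes and 24 of 27 fatty acid and PPAR genes measured lay above that median. The glycolysis share of 5% lower is thus near that of such genes. Of fatty acid and PPAR genes 3 of 27 were lower (11.1%) and 4 higher (14.8%), the latter Fabp5, Lpl, Scd1 and Cpt2, which act in fatty acid binding, uptake, desaturation and oxidation, each higher by 2.14 to 2.61-fold. Of glycolysis genes 1 of 20 was lower (5%), Ldhb, and 2 were higher (10%), Aldoc (274, 252 and 269 against 74.9, 77.8 and 89.4) and Eno2 (73.8, 53.3 and 63.4 against 18.7, 15.99 and 23.8), neither of which was called in the study's analysis of variance. In limma the call of Eno2 was also lost without P19 NTES7 replicate 1, without replicate 3 or without R1 replicate 2 (adjusted p = 0.0118 to 0.0187), which leaves 1 higher. Of 17 threonine, glycine and one-carbon enzymes 1 was lower and 1 higher, and without P19 NTES7 replicate 1 Gldc was lower too. Amt, of the glycine cleavage system, read 43.1, 46.7 and 44.1 in P19 NTES7 and 177, 169 and 207 in R1 (log2 difference -2.04 ± 0.10 (SE), adjusted p = 8.72e-09), and Mthfd2, of mitochondrial folate metabolism, 194, 142 and 151 against 61.4, 66.1 and 81.5. Glutathione and detoxification genes had 2 lower and 1 higher of 27, and heat shock proteins 2 lower (11.8%) and 1 higher (5.88%) of 17. Gstm5, a glutathione transferase, read 92.9, 86.05 and 63.6 against 16.6, 16.05 and 14.6 with a P19 mean of 19.4, and Hspb1, a small heat shock protein, 53.5, 45.9 and 57.8 against 201, 187 and 149. In the interferon list of 25 measured genes Ifitm1 was lower, while Tapbp, which loads peptides on MHC class I, and Oasl2 were higher, at 175, 173 and 155 and 54.9, 60.9 and 55.3 in P19 NTES7 against 65.6, 65.9 and 71.5 and 17.2, 18.2 and 26.5 in R1.

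Fibroblast markers moved with the comparison. Of 30 measured, 6 were lower in P19 NTES7 (20%, against 2.85% of all genes) and 0 higher, with a median log2 difference of -0.50. In 18 of the 30 the P19 NTES7 arrays lay under those of R1 without overlap, and in 0 above them. Among all 19941 genes, 3701 lay under and 4076 above without overlap. The part of feeder cells in this was not tested. The matrix protease Mmp3 read 51.5, 56.5 and 56.4 in P19 NTES7 and 309, 304 and 267 in R1, the proteoglycan Dcn 88.7, 77.99 and 75.00 against 196, 186 and 313, and the other 4 called markers were 2.15 to 3.07-fold lower. The collagen genes Col1a1 and Col1a2 were not called, at 365, 246 and 279 and 179.9, 137 and 174 in P19 NTES7 against 334, 318 and 375 and 222, 226 and 247 in R1. In P19, grown without feeders, Mmp3 and Dcn averaged 7.41 and 8.45.

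Differences also followed the chromosomes. Over genes above the array median in either line, the median log2 difference of P19 NTES7 from R1 was -0.42 on chromosome 14, where 64 of 385 genes were called lower (16.6%) and 2 higher (0.519%), against 5.2% lower and 3.04% higher among all 10888 such genes. It was 0.29 on chromosome 4, 0.27 on chromosome 11, 0.17 on chromosome 18 and 0.14 on chromosome 6, and -0.12 to 0.03 on the other 14 autosomes. The 3 arrays of P19 NTES7 lay on the same side of 0 on each of these 5 chromosomes, at -0.38, -0.44 and -0.46 on chromosome 14 and 0.36, 0.29 and 0.25 on chromosome 4. They also shared a side of 0 on chromosomes 1, 8, 12, 13 and 16, at -0.149 to -0.003, so this does not set the 5 apart. P19 itself differed from R1 by 0.22, 0.29, 0.23 and 0.15 on chromosomes 4, 11, 18 and 6, but by -0.11 on chromosome 14. Both lines share the R1 arrays here, so a trait of R1 alone would shift both. Set directly against P19, the medians of P19 NTES7 were 0.06, -0.05, -0.06 and -0.01 on chromosomes 4, 11, 18 and 6. On chromosome 14 the median against P19 was -0.29. With the genes of chromosome 14 placed in order and cut into 5 runs of 77, the last run had a median of -0.74 in P19 NTES7 and -0.78 in P19, whereas the other 4 runs lay at -0.41 to -0.27 in P19 NTES7 and -0.05 to 0.06 in P19. No copy number was measured, and its part in these shifts was not tested.

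**Figure D4:**
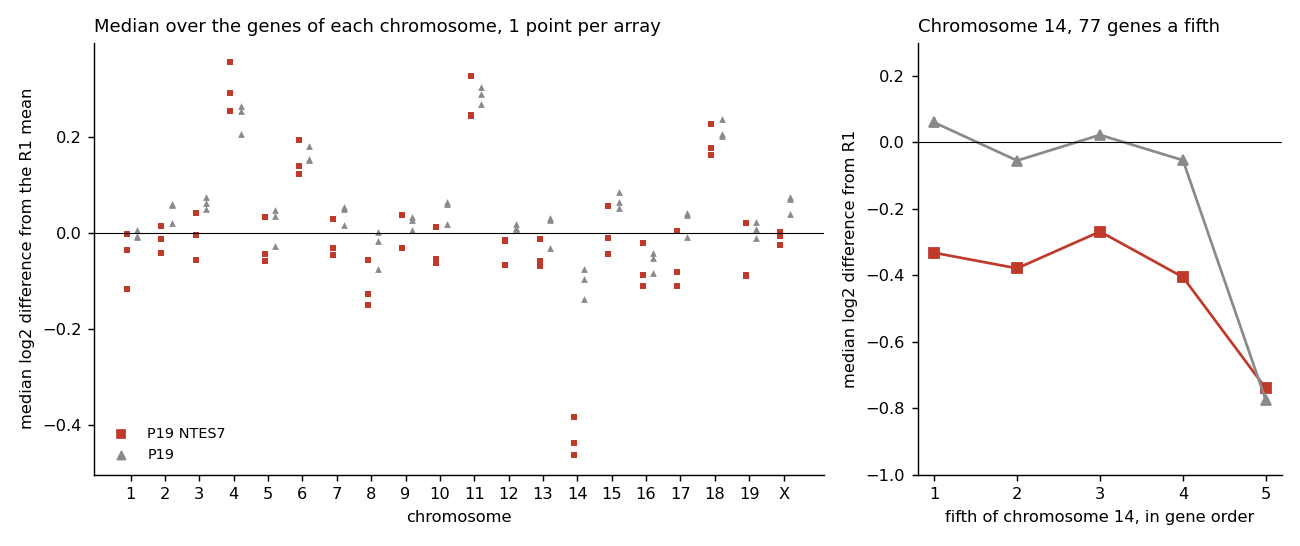
Left, median log2 difference from the R1 mean over the genes of each chromosome (x axis), for each array of P19 NTES7 (red squares) and of P19 (gray triangles). Right, the medians over 5 runs of 77 genes in order along chromosome 14. Both lines share the R1 baseline. Chromosomes 4, 6, 11 and 18 lie above 0 in both lines, chromosome 14 lies at -0.38, -0.44 and -0.46 in the P19 NTES7 arrays, and the last run of chromosome 14 is low in both.

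With these chromosome medians subtracted, 850 genes were called, of which 767 were the same genes with the same direction. The naive and p53 lists then had 11 (without Klf5) and 17 lower members. Trp53 is on chromosome 11, where the median gene was higher, and its fall was larger against that median (log2 difference -5.85).

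Called genes formed 8 runs of at least 3 neighbors with the same direction, 27 genes in all. On chromosome 8, Triml1 (8.91, 10.1 and 13.3 in P19 NTES7, 87.5, 86.4 and 122 in R1), Triml2 and Zfp42 were lower together. On chromosome 16, Dppa4, Dppa2 and Morc1 were, with Morc1, a repressor of retrotransposons in germ cells, at 21.7, 26.4 and 20.6 against 91.4, 83.1 and 78.3. On chromosome 15 the run held Zfp740, the integrin Itgb7 and Rarg, the gamma receptor of retinoic acid, which read 27.3, 23.6 and 24.6 against 92.9, 101 and 94.4 (log2 difference -1.94 ± 0.10 (SE), adjusted p = 9.15e-09). The chromosome 2 run (Depdc7, Qser1, Prrg4) was lower, and the chromosome 12 run (Lrrc9, Pcnx4, Dhrs7) was higher, where Dhrs7, a dehydrogenase, read 92.97, 82.8 and 81.4 against 16.96, 21.3 and 20.7. A chromosome 14 run (Naa16, Mtrf1, Kbtbd7, Kbtbd6) was lower by log2 differences of -1.10 to -1.01, and none of its genes was called with the chromosome median subtracted. Leaving out an array broke some runs at their members near the fold threshold, as Dppa4 was not called without R1 replicate 3, and Zfp740 not without P19 NTES7 replicate 2, without replicate 3, without R1 replicate 1 or without R1 replicate 2. On chromosome 14, Mtrf1 was not called without P19 NTES7 replicate 2, without replicate 3 or without R1 replicate 1, Kbtbd7 not without P19 NTES7 replicate 2, and Kbtbd6 not without P19 NTES7 replicate 1 or R1 replicate 2.

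The other 2 runs were clusters of microRNA genes, which in 300 measured microRNA genes gave all 5 higher and 3 of the 4 lower calls (the other being Mir17hg, a host transcript). As counts over 300 genes, these calls were at or under the shares of all genes (1.67% higher and 2.85% lower). These probe sets read the hairpin or its host RNA, not the mature microRNA. The mature forms are shown because the seed, bases 2 to 8, sets which transcripts a microRNA recognizes, and the seeds relate the clusters to the microRNAs typical of ES cells. The sequences are those of RefSeq on GRCm38.p6, 5′ to 3′, with the seed in capitals.
miR-302b-3p: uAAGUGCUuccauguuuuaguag
miR-302d-3p: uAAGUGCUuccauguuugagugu
miR-302c-3p: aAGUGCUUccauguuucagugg
miR-367-3p: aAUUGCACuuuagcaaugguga
miR-18a-5p: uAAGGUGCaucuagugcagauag
miR-20a-5p: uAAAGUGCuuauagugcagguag
miR-19a-3p: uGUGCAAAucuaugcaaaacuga

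The seed of miR-302b-3p and miR-302d-3p is that of miR-291a-3p, miR-294-3p and miR-295-3p, of the family dominant in mouse ES cells, and the first 6 bases of their seed are the last 6 of the seed of miR-20a-5p. miR-367-3p has the seed of the miR-25 and miR-92 family, and miR-19a-3p that of miR-19b-3p. The 5 hairpins of the cluster of miR-302 and miR-367 lie within chr3:127545238-127545800 by their mature forms (plus strand) and those of miR-18a, miR-19a and miR-20a within chr14:115043867-115044240 (plus strand).

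All 5 probe sets of the cluster of miR-302 and miR-367, which is known from primed and human pluripotent cells, were higher in the cloned line. Mir302c read 118, 113 and 86.7 in P19 NTES7 and 24.95, 27.8 and 27.3 in R1 (log2 difference 1.98 ± 0.22 (SE), adjusted p = 1.57e-05), and Mir302d read 113, 114 and 126 against 38.1, 42.3 and 31.6 (log2 difference 1.66 ± 0.24 (SE), adjusted p = 1.52e-04). Mir302a, Mir302b and Mir367 had log2 differences of 1.44, 1.39 and 1.33. P19 averaged 95.9 for Mir302c and 91.4 for Mir302d, with P19 replicate 3 the lowest P19 array at all 5. In the study's analysis of variance on linear intensities, Mir302a, Mir302b, Mir302d and Mir367 were not called.

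The cluster from miR-17 to miR-92, which promotes proliferation and is driven by Myc and E2F, was lower. Its host transcript Mir17hg read 27.8, 42.7 and 30.3 in P19 NTES7 and 72.96, 71.9 and 76.6 in R1 (log2 difference -1.16 ± 0.16 (SE), adjusted p = 1.33e-04), and Mir18 read 19.2, 22.2 and 19.5 against 49.6, 53.3 and 47.2 (log2 difference -1.30 ± 0.10 (SE), adjusted p = 5.06e-07). Mir19a and Mir20a had log2 differences of -1.05 and -1.03, and Mir17 and Mir19b-1 had -0.73 and -0.86 without passing the fold threshold. P19 read 44.1, 29.8 and 32.9 for Mir17hg, so that replicate 1 lay above the P19 NTES7 arrays and the other 2 within their range. The cluster lies in the last run of chromosome 14, and with the chromosome median subtracted none of its 4 called probe sets was called, at log2 differences of -0.74 (Mir17hg), -0.88 (Mir18), -0.63 (Mir19a) and -0.61 (Mir20a). Mir19a and Mir20a were also not called without P19 NTES7 replicate 3 or without R1 replicate 2, and Mir19b-1 was called lower without P19 NTES7 replicate 2.

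**Figure D5:**
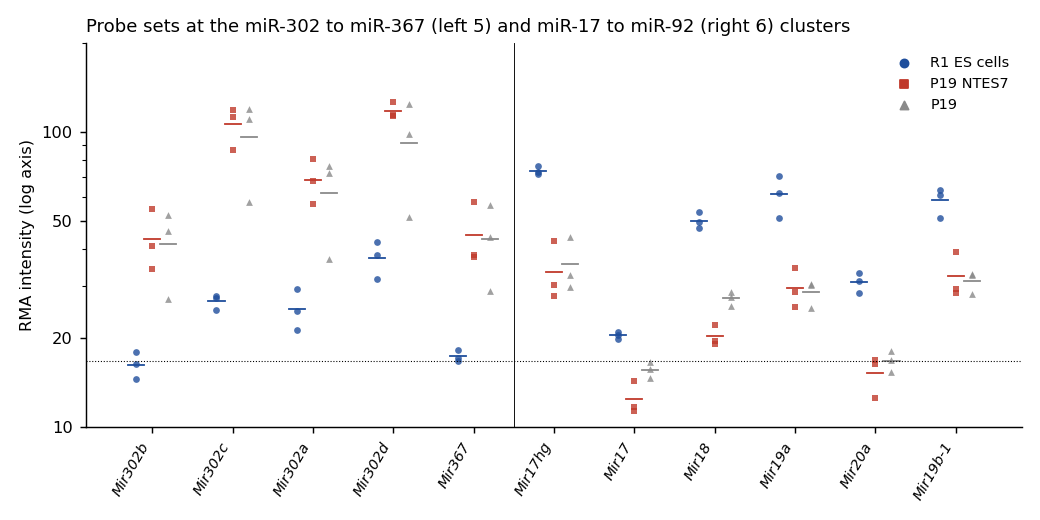
RMA intensity (log axis) of each of the 9 arrays at the probe sets of 2 microRNA clusters. R1 is in blue circles, P19 NTES7 in red squares and P19 in gray triangles, with means as short lines. The dotted line is the median of the 9 array medians (16.8). The red squares lie above the blue circles at the 5 probe sets of the left cluster and under them from Mir17hg to Mir19b-1, with P19 near the red squares in both.

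Promoters of the called genes were searched for 7 motifs on both strands in the window from 250 bases before to 50 after the start (RefSeq, GRCm38.p6), where 609 promoters of 447 lower genes, 348 of 258 higher genes and 19180 of all 15616 genes with an entry were available. The octamer ATGCAAAT, the site of Oct4, was in 2.63% of promoters of lower genes, 3.16% of higher genes and 1.60% of all. The CACCC box GGGTGTGG of Krüppel-like factors was in 3.12%, 4.60% and 3.73%. The site of Esrrb, TCAAGGTCA, was in 1 promoter of a lower gene, 1 of a higher gene and 57 of all. The MAX E-box TCACGTGA was in 0.657%, 2.30% and 1.32%. The AP-1 site TGACTCA (4.43%, 5.17% and 4.62%), the CRE TGACGTCA (2.30%, 2.87% and 2.37%) and the E2F site GGCGGGAA (3.45%, 2.87% and 3.04%) were at like shares in the 3 groups. The 7 motifs do not contain one another. The counts are a description, several promoters can belong to 1 gene, and a match is not a site shown to be bound. The median GC content was 59.7%, 60.2% and 57.3%.

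Of the 8 called genes named by the study that had a promoter entry, 3 held a match within the 250 bases before the start, and these are printed with the matches in capitals (all on the minus strand).
Zfp42 (chr8:43307010-43307259): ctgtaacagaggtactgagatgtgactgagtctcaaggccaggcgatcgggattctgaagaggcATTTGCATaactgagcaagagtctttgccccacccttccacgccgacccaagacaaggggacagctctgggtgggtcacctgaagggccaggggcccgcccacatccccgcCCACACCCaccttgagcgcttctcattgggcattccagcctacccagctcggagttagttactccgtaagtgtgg
Gadd45a (chr6:67037408-67037657): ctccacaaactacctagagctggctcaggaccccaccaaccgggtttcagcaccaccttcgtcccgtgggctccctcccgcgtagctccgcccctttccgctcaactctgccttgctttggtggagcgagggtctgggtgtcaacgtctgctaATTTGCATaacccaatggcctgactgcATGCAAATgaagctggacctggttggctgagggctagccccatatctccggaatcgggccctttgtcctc
Peg3 (chr7:6730420-6730669): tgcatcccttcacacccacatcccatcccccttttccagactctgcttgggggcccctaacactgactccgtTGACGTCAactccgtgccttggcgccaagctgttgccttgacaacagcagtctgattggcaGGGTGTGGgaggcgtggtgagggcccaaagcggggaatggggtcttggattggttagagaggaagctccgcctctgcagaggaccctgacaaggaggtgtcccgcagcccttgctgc

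The capitals mark an octamer and a CACCC box in Zfp42, both as the reverse complement, and 2 octamers in Gadd45a, 1 of each orientation. In Peg3 they mark a CRE and a CACCC box. Zfp42 and Gadd45a were lower in P19 NTES7 and Peg3 higher, so that the octamer and the CACCC box stood in promoters of genes of both directions among the 609 and 348 promoters above.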

How the data were processed

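Total RNA (100 ng a sample) was hybridized to Affymetrix Gene 1.0 ST arrays, 3 for each of P19, P19 NTES7 and R1. The authors deposited RMA intensities on a linear scale. A scaling to a common median named in their methods is not visible in the values. Here log2 of the intensities of all 9 arrays was fitted with a mean per line (limma 3.58.1 in R 4.3.3, lmFit and eBayes), and the contrast P19 NTES7 minus R1 was called at a Benjamini-Hochberg adjusted p under 0.01 over all 28853 probe sets with a fold over 2. Of these, 21789 had 1 gene symbol in the platform annotation, updated through RefSeq, 1621 several and 5443 none. Trp53, H19 and Cdkn1a were named through the study's own pairs of probe set and symbol. The fit was tested on simulated data with known changes.

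Genes named were the 15 largest falls and rises with arrays that did not overlap, the genes the study discusses, the 4 called members with the smallest adjusted p of each of 29 lists, and members of runs of neighbors. Further list members were named after their values were seen. The comparison, the lists and the rules were chosen with earlier results of these data known. The number of arrays limits the precision, and the p-values measure the spread between samples of 1 line each.

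Alternatives were the 6 arrays alone, no dim probe sets, quantile normalization, median centring, 16 added before the log, the study's one-way analysis of variance on linear intensities with and without adjustment, a trended robust variance, the replicate number as a block, the mean of a gene's probe sets, and each array left out. Subtraction of chromosome medians was added after seeing the data. Gene order, promoters and microRNA sequences came from RefSeq (GRCm38.p6).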

Additional observations from a re-analysis of the deposited data

How the results depend on the processing

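With 16 added to each intensity before the log, which shrinks the folds of dim probe sets, 709 probe sets were called (406 lower and 303 higher in P19 NTES7) and 457 genes (307 lower and 150 higher), all 457 with the direction given above. Under the other 16 settings the counts of called genes stayed within 1.5 times those reported, and leaving out each array in turn gave 895 to 977 genes. No gene called under a setting was called in the opposite direction. Of the 133 genes named by rule, 43 lost their call under at least 1 setting and 0 reversed, most of them dim or near the fold threshold. Of 70 called genes with several probe sets, 37 had the same call in all and 5 had a probe set of opposite sign, none of them called.

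The replicate numbers did not pair the samples, as the correlations of the deviations of same-numbered arrays of the lines were -0.192, -0.0271 and -0.223. With the replicate number as a block, 1302 probe sets and 899 genes were called, and no P19 NTES7 array correlated best with the R1 array of its own number. Signal over background limits the folds of 156 genes called lower and 104 called higher, whose dimmer line lay under the array median.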

Other observations

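Among 5443 probe sets without a gene symbol and 1621 with several, 289 were called between the lines. They are counted above only among the probe sets.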
